A study of Mus musculus with 4 samples.

Results

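C1q-positive macrophages outside the alveolar macrophage population were studied in murine lung adenocarcinoma, in cells that were chosen by their own measured transcripts. A cell was taken when it held at least 10 unique molecular identifiers (UMIs, each standing for 1 captured transcript) of C1qa, C1qb and C1qc together, under 8 UMIs of the alveolar macrophage genes Ear1, Ear2, Marco, Fabp1 and Atp6v0d2 together, and 0 UMIs of Epcam, Cd3e and Cd79a. This gave 459 of the 7305 cells that passed the quality limits in the pre-depletion libraries, and 13493 cells passed them over the 4 libraries of the series. They are called C1q cells here. Of them, 198 came from the KP library and 261 from the KPF1F2 library. The comparison populations were the 749 KP and 536 KPF1F2 cells that met the opposite rule, with the alveolar genes at 8 UMIs or more and the C1q genes under 10, called alveolar macrophages.

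Both libraries came from mice of mixed 129/B6 strain that carried KrasFSF-G12D, p53frt and Rosa-FSF-CreERT2, with tumours started by the virus Ad5-mSPC-FlpO. The KP group was labelled Foxa1flox/+ and Foxa2flox/+, and the KPF1F2 group Foxa1flox and Foxa2flox. All mice received tamoxifen at 120 mg/kg daily for 4 days at week 10, and tumours were dissected out at week 12. Flp was expressed from the surfactant protein C promoter, which is active in the alveolar epithelium, so the tamoxifen-dependent Cre was placed in epithelial tumour cells and the macrophages are host cells that the alleles were not aimed at. The labels do not say how many animals entered a library. Each genotype had 1 pre-depletion library, so no difference between genotypes has a replicate check and none was tested. The post-depletion libraries, from which cells with CD45 (leukocytes) or CD31 (endothelium) had been removed, held 0 KP and 1 KPF1F2 C1q cells.

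C1q is the recognition molecule of the classical complement pathway. It is built from 3 kinds of chain that neighbouring genes encode, binds antibody complexes and dying cells, and is made largely by tissue macrophages and not by the liver. In the lung, alveolar macrophages live in the airspace and clear surfactant, while interstitial macrophages sit in the tissue around airways, vessels and nerves, are known for C1q and MHC class II, and include a Lyve1- and Folr2-bearing set near vessels and a Cx3cr1- and MHC class II-rich set.

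The C1q genes lie side by side on the minus strand of chromosome 4 (GENCODE mouse release 21, GRCm38), C1qb at 136880129 to 136886187, C1qc at 136889804 to 136893065 and C1qa at 136895917 to 136898803. The upstream sequences of C1qb and C1qc, from RefSeq on GRCm38.p6, are shown because these genes define the cells and both sequences hold the same short motif. The first covers chr4:136886201-136886300 and the second chr4:136893066-136893164, both minus strand and written 5′ to 3′, and C1qa is named only. The capitals mark AGGAAGT read on the opposite strand, the letters of an ETS-type site, the family of the macrophage regulator PU.1. It starts 53 bases before the RefSeq start of C1qb and 195 bases before that of C1qc.
C1qb: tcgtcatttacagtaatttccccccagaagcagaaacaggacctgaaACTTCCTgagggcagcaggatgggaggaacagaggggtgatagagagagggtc
C1qc: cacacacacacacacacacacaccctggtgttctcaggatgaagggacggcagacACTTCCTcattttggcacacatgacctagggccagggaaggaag
With both strands searched over the 250 bases before the start, AGGAAGT was in 7.69% of 32851 mouse promoters. The shorter PU.1-type core GAGGAA was in 23.3% of them and in both C1q promoters, at 30 bases before the C1qb start and, overlapping the ETS-type match, at 193 bases before that of C1qc. The MAF half-site TGCTGA was in 16.1%, with a match 131 bases before the C1qb start and none in the C1qc window. A match describes letters and not binding. Spi1, which encodes PU.1, was at 454 CPM (UMIs of the gene per 1000000 UMIs summed over the population) in KP and 443 CPM in KPF1F2 C1q cells, and at 423 and 395 CPM in alveolar macrophages. Maf, which encodes a factor that binds MAF half-sites, was at 91.4 and 136 CPM in C1q cells, against 3.30 and 3.15 CPM in alveolar macrophages.

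C1q cells made up 198 of 3797 kept cells in KP, 5.21% (exact Clopper-Pearson 95% interval 4.53 to 5.97), and 261 of 3508 in KPF1F2, 7.44% (6.59 to 8.36). Among C1q cells and alveolar macrophages together their share was 20.9% (18.4 to 23.6) in KP and 32.7% (29.5 to 36.1) in KPF1F2. The intervals of the pair do not overlap, but here and throughout they cover counting error only and say nothing of how mice or dissections vary. Depth was similar in the pair, with a median of 14907 UMIs and 3421 genes per C1q cell in KP and 12831 UMIs and 3126 genes in KPF1F2. Alveolar macrophages were deeper, at 20290 and 21580 UMIs. No C1q cell shared its barcode with a barcode of the other library, while 11 barcodes occurred in both libraries overall.

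The values that chose the cells were mostly far from the limits. A C1q cell held a median of 214 C1q UMIs in KP (range 10 to 677) and 211 in KPF1F2 (10 to 719), against a median of 0 and a maximum of 9 in alveolar macrophages. At the C1q limit, 6 KP and 8 KPF1F2 cells lay just inside, with 10 to 14 UMIs, and 5 and 13 otherwise qualifying cells just outside, with 5 to 9. At the alveolar limit, 16 and 16 cells lay inside with 5 to 7 UMIs, and 13 and 11 outside with 8 to 11. A further group of 55 KP and 116 KPF1F2 cells was high in both gene sets and free of Epcam, Cd3e and Cd79a. Another 89 and 70 cells with high C1q were left out for a UMI of those 3 genes, mostly Epcam (85 and 63 cells). The C1q cells therefore held 57.2% of all C1q UMIs in kept KP cells and 64.5% in KPF1F2.

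**Figure D1:**
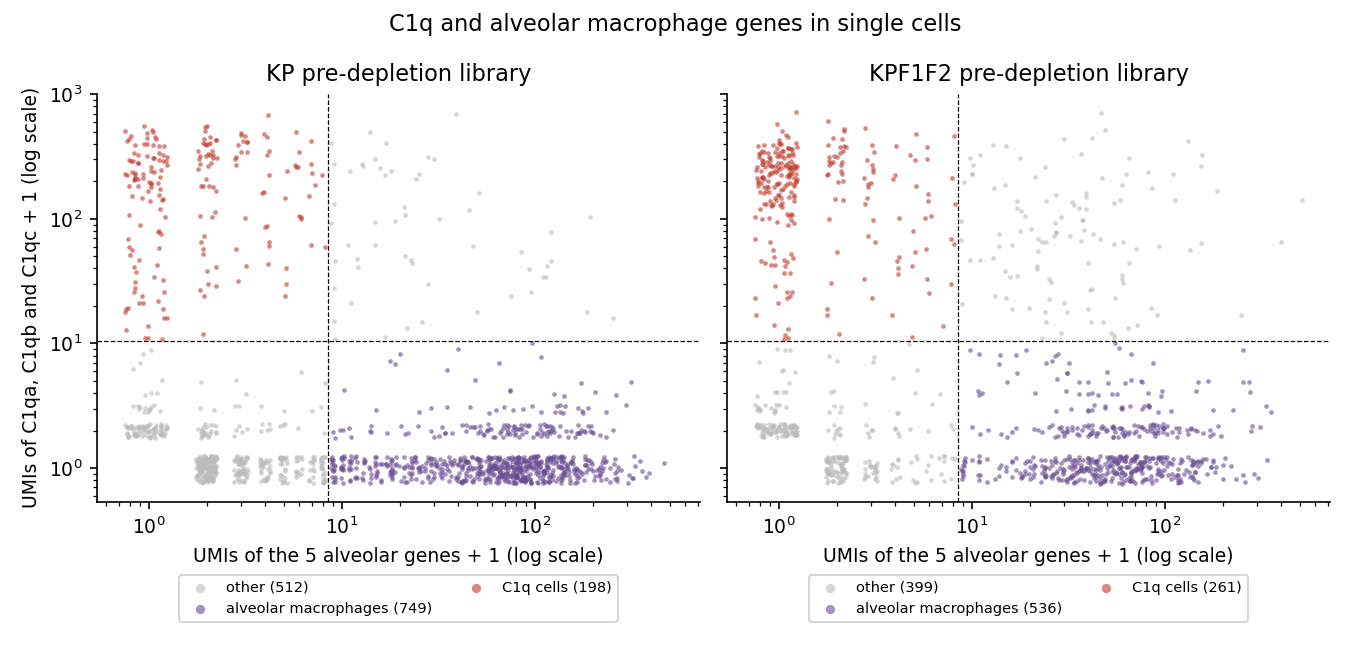
Each point is 1 cell without Epcam, Cd3e or Cd79a UMIs and with at least 1 UMI of either gene set, jittered, with UMIs of the 5 alveolar genes on the x axis and of the 3 C1q genes on the y axis (both plus 1, log scales) and dashed lines at the limits. The 198 KP and 261 KPF1F2 C1q cells fill the upper left, the 749 and 536 alveolar macrophages the lower right, and fewer cells lie in the upper right.

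The 3 C1q transcripts chose the cells, so their levels are set in part by the choice and are a description. C1qa was at 5941 CPM in KP and 5582 CPM in KPF1F2 C1q cells (ratio 0.939, 95% counting interval 0.921 to 0.958), C1qb at 5311 and 5340 CPM (1.01, 0.985 to 1.03) and C1qc at 3457 and 3457 CPM (1.00, 0.975 to 1.03). In alveolar macrophages they ranged from 2.39 to 18.3 CPM.

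The cells carried macrophage transcripts that the choice had not used. Csf1r, the receptor for macrophage colony-stimulating factor, was at 620 CPM in KP and 656 CPM in KPF1F2 C1q cells, and Adgre1, which encodes F4/80, at 210 and 323 CPM. Adgre1 was found in 73.7% and 85.4% of cells. Alveolar macrophage genes outside the rule were low: Siglecf, the Siglec-F surface marker, was at 4.35 and 1.83 CPM against 115 and 95.5 CPM in alveolar macrophages. Of 12 dendritic cell genes, several markers that define conventional dendritic cells were near 0. Flt3 was at 0 and 1.31 CPM, Xcr1 at 0 and 0.522 CPM, Clec9a at 0 in both and Zbtb46 at 1.67 and 1.04 CPM. Naaa, another gene of that list, was not, with 823 UMIs over 186 of 261 KPF1F2 C1q cells. It was at least 2-fold higher in alveolar macrophages in both libraries. Summed over their whole lists, the 12 dendritic cell genes reached 134 and 292 CPM, the 11 lymphocyte genes 60.9 and 84.6 CPM, the 10 neutrophil genes 169 and 156 CPM and the 13 stromal and endothelial genes 28.8 and 85.4 CPM, each below all other kept cells (lowest 365, 696, 760 and 393 CPM). The 12 epithelial genes summed to 740 and 971 CPM against 54998 and 17870 CPM in other cells. The 12 monocyte genes summed to 504 and 557 CPM against 8341 and 16616 CPM, but that list holds Chil3, which is abundant in alveolar macrophages. Ccr2, another monocyte gene of the list, was found in 39.4% of KP and 40.2% of KPF1F2 C1q cells. In alveolar macrophages its shares were 5.74% and 18.1%. In KPF1F2, 1 C1q cell held 2530 of the 2745 UMIs of Sftpc, the alveolar type II gene for surfactant protein C.

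Set against alveolar macrophages of the same library, C1q cells were described by 2535 genes with a mean of at least 50 CPM over both populations in both libraries. Because 8 genes split the populations, this contrast follows from the choice of cells, and its counts are a description with no test. In both libraries 160 genes (6.31%) were at least 2-fold higher in C1q cells and 200 (7.89%) at least 2-fold lower, on the scale of log2 ratios of CPM plus 1. The median log2 ratio over all genes was -0.10 in each library.

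Antigen presentation and chemokine genes stood on the C1q side. All 6 measured MHC class II genes were at least 2-fold higher in C1q cells in both libraries, with a list median of 3.8 log2 units in KP and 2.91 in KPF1F2. H2-Aa, a class II chain, was at 7766 and 12033 CPM in C1q cells and 518 and 1600 CPM in alveolar macrophages, and Cd74, the class II invariant chain, at 25291 and 37205 against 1948 and 4976 CPM. Of 13 measured chemokines, 10 were higher and 1, Ccl6, lower. Ccl12, a monocyte attractant, was at 416 and 595 CPM against 2.39 and 1.62 CPM. Cxcl2, which attracts neutrophils, was at 6138 and 4968 against 822 and 1521 CPM. Of 10 NF-kB pathway genes, 5 were higher and none lower, among them Nfkbia, the inhibitor the pathway induces, at 1125 and 1432 against 162 and 374 CPM. Il1b, an inflammatory cytokine, was at 2807 and 2796 CPM in C1q cells and 164 and 778 CPM in alveolar macrophages. The 15 immediate-early and heat shock genes, which tissue digestion is known to induce, summed to 13065 and 12860 CPM in C1q cells and 5729 and 7544 CPM in alveolar macrophages, and their part in these differences was not tested.

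Among the genes with the widest gaps, Apoe, the lipid carrier apolipoprotein E, stood at 31005 CPM in KP and 7483 CPM in KPF1F2 C1q cells and at 52.0 and 55.3 CPM in alveolar macrophages. Aif1, which encodes the macrophage actin-binding protein IBA1, was at 599 and 369 against 2.2 and 2.18 CPM. Ms4a7, a membrane gene of tissue macrophages, was at 633 and 475 against 23.3 and 22.9 CPM. Cx3cr1, the fractalkine receptor, was at 272 and 190 against 1.10 and 2.75 CPM. Of the 6 measured genes of a microglia-type list, 4 were at least 2-fold higher, Cd72, Cx3cr1 and Cd81 among them. Other complement genes were divided: C3ar1, the C3a receptor, was at 210 and 261 against 17.7 and 9.61 CPM. C3 itself was lower in C1q cells, at 87.3 and 90.4 against 246 and 167 CPM.

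On the other side, 14 of 16 measured alveolar macrophage genes outside the rule were at least 2-fold lower in C1q cells. Chil3, a chitinase-like protein, was at 326 and 304 CPM against 22468 and 34018 CPM, and Pparg, the regulator of alveolar macrophage identity, at 6.69 and 8.62 against 128 and 107 CPM. Lipid handling genes went with them, 9 of 14 measured at least 2-fold lower and 1, Apoe, higher. Fabp4, a fatty acid carrier, was at 2.34 and 9.40 against 403 and 367 CPM, and Abcg1, a cholesterol exporter, at 45.5 and 49.1 against 627 and 760 CPM. Of 16 measured genes of lipid-associated macrophages, 7 were at least 2-fold lower in C1q cells and 1, Apoe, was higher. These lists share members, so their counts are not separate. Fabp4, Abcg1 and Pparg are in the alveolar and lipid handling lists. Fabp5, Plin2 and Apoe are in the lipid handling and lipid-associated lists, and Lpl is in each. Gpnmb, one of them, was at 19.4 and 48.9 against 657 and 655 CPM, whereas Trem2, the lipid-sensing receptor, was similar in all 4 populations at 398, 340, 312 and 316 CPM. Mrc1, the mannose receptor, was at 314 and 544 CPM in C1q cells and 845 and 1050 CPM in alveolar macrophages.

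**Figure D2:**
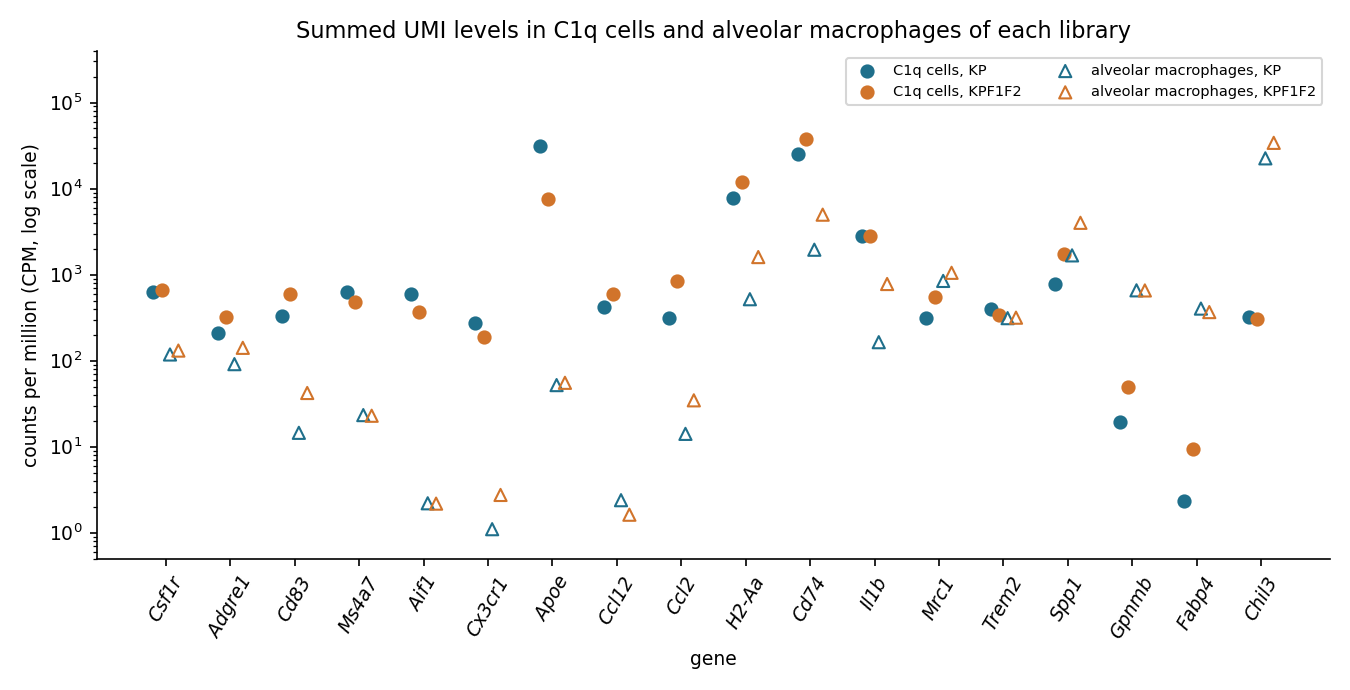
Levels of 18 genes in CPM (log axis), as sums over all cells of a population, in C1q cells (filled circles) and alveolar macrophages (open triangles) of the KP (blue) and KPF1F2 (orange) libraries, with no replicates. Circles lie above triangles for Apoe (31005 and 7483 against 52.0 and 55.3 CPM), Aif1 and the class II genes, and below them for Chil3 and Fabp4.

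Between genotypes, 2670 genes had a mean of at least 50 CPM in C1q cells. Of these, 71 (2.66%) were at least 2-fold higher in the KPF1F2 library and 64 (2.4%) at least 2-fold lower, with a median log2 ratio of 0.04 over all genes. The libraries also differed in sex-linked transcripts: Xist, expressed from the inactive X chromosome, was at 790 and 0 CPM in C1q cells, and Ddx3y, a Y-linked gene, at 0 and 67.9 CPM. The sample titles also give the libraries different numbers, which the labels do not explain. Sex, this title number and genotype therefore cannot be told apart. Alveolar macrophages of the same libraries went at least 2-fold in the same direction for 32 of the 71 higher and 16 of the 64 lower genes, and at least 2-fold in the opposite direction for 0 and 2. The alveolar ratios had no minimum level of their own. The share of all 2670 genes that went 2-fold in alveolar macrophages is not given, so these counts are a description. The share of all genes with a positive ratio is not given either. Counts of signs in the lists below are therefore a description too, beside the median of 0.04.

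Resident interstitial macrophage genes were higher in KPF1F2. All 8 measured members of that list of 14 had positive log2 ratios (median 1.57), and 5 were at least 2-fold higher. Folr2, F13a1 and Gas6 passed the 50 CPM limit only through their KPF1F2 level, so this count and median follow in part from the limit. Folr2, a folate receptor that marks perivascular macrophages, was at 7.03 CPM in KP and 95.3 CPM in KPF1F2 (ratio 13.6, 8.74 to 22.2), and F13a1, the coagulation factor XIII A chain, at 16.4 and 156 CPM (9.50, 7.09 to 13). Pf4, the chemokine platelet factor 4, was at 313 and 965 CPM (3.09, 2.87 to 3.32), and Gas6, a ligand of the dying-cell receptors Axl and Mertk, at 25.4 and 93.5 CPM. Lyve1, the hyaluronan receptor, and Cd163, the haemoglobin scavenger receptor, were under the 50 CPM limit, at 3.01 and 43.6 CPM (14.5, 7.45 to 32.2) and at 1.00 and 38.9 CPM (38.8, 13 to 190), the latter from 3 KP UMIs. Folr2, Lyve1 and Cd163 were found in few cells: 52 of 261 KPF1F2 C1q cells held Folr2, 18 Lyve1 and 23 Cd163, and the 5 cells with most UMIs of each gene held 44.1%, 64.7% and 58.4% of its UMIs. Without the 5 cells of each library with most UMIs of the gene, Folr2 was at 3.09 and 54.6 CPM.

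Chemokines differed in both directions, 7 of 17 measured higher in KPF1F2 and 2, Cxcl14 and Ccl17, lower by the 2-fold rule, with a median of 0.40. Ccl8 was at 46.8 CPM in KP and 1335 CPM in KPF1F2 (ratio 28.5, 24.1 to 34), and Cxcl13, which draws B lymphocytes into tissue, at 29.1 and 483 CPM (16.6, 13.4 to 20.8). Both rested on few cells, 75 of 261 for Ccl8 and 32 of 261 for Cxcl13, and 5 cells held 53.7% and 69.9% of the KPF1F2 UMIs. Without those cells Ccl8 was at 16.4 and 633 CPM and Cxcl13 at 0 and 148 CPM. Ccl7 and Ccl2, attractants of Ccr2-bearing monocytes, were spread more widely, over 135 and 184 of 261 cells. Ccl7 was at 160 and 737 CPM (4.6, 4.17 to 5.08) and Ccl2 at 314 and 842 CPM (2.69, 2.5 to 2.89), and both were also higher in KPF1F2 alveolar macrophages by 2.44 and 1.24 log2 units. Ccl24 was at 22.1 and 96.7 CPM, but 1 cell held 292 of its 370 KPF1F2 UMIs, and its log2 ratio of 2.08 was -0.15 with the alveolar genes limited to under 4 UMIs. In the other direction, Cxcl14 was at 372 and 79.9 CPM (0.215, 0.189 to 0.244) and was seen in 131 of 198 KP cells. Ccl17 was at 687 and 326 CPM, and 5 KP cells held 85.8% of it. Without the 5 leading cells it was at 102 and 98.7 CPM. Cxcl3, a neutrophil attractant that the list does not hold, was at 950 and 124 CPM (0.13, 0.118 to 0.144), with 86.5% of the KP UMIs in 5 cells and 29 of 198 cells holding any.

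Of 13 measured cytokines and growth factors, 3 were at least 2-fold higher in KPF1F2 and 1 lower (median 0.02), and of 10 cholesterol and lipid handling genes 2 were higher, Pltp and Lpl, and 1, Apoe, lower (median 0.21). Igf1, insulin-like growth factor 1, was at 16.1 and 122 CPM (7.60, 5.64 to 10.4) and was found in 120 of 261 KPF1F2 cells. It was also higher in KPF1F2 alveolar macrophages, at 7.95 and 147 CPM. Pltp, phospholipid transfer protein, was at 48.9 and 353 CPM (7.23, 6.09 to 8.64) and was found in 205 of 261 cells. Clec4a1, a C-type lectin, was at 29.4 and 108 CPM, and Mgl2, a galactose-binding lectin, at 459 and 1124 CPM. Of complement genes other than C1q, 10 of 10 measured had positive log2 ratios, with a median of 0.36. Only C4b (34.5 and 89.1 CPM) and C5ar1, the C5a receptor (94.0 and 222 CPM), reached 2-fold. C4b was found in 39 of 261 KPF1F2 cells, and 5 cells held 53.7% of its KPF1F2 UMIs. All 7 class II genes were positive with a median of 0.56, and only H2-Eb1 reached 2-fold, at 4697 and 9821 CPM (2.09, 2.05 to 2.13). Lyz1, a lysozyme gene, was at 8.37 and 196 CPM with 90.8% of the KPF1F2 UMIs in 5 cells, and without the leading cells at 4.55 and 18.7 CPM. Lyz1 shares much of its sequence with Lyz2, so its reads may be partly misassigned.

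Apoe had the highest CPM in KP of the 64 genes on the lower side, and its ratio of KPF1F2 to KP was 0.241 (0.238 to 0.245), with 193 of 198 KP cells holding it. It did not follow in alveolar macrophages, where its log2 ratio was 0.09. In all other kept cells it was at 1238 CPM in KP and 402 CPM in KPF1F2. Arg1, which encodes arginase and is known in tumour-associated macrophages, was at 536 and 72.1 CPM (0.135, 0.118 to 0.153) and at 82.7 and 88.4 CPM in alveolar macrophages. Il1a, an alarm cytokine, was at 372 and 83.6 CPM (0.224, 0.198 to 0.254). Rgs1, a brake on G-protein signalling, was at 2013 and 566 CPM (0.281, 0.268 to 0.296), with 605 and 192 CPM in alveolar macrophages. Tnfrsf9, a costimulatory receptor, was at 160 and 21.2 CPM and was found in 32 of 198 KP cells. Of 8 measured microglia-type genes, 7 had negative log2 ratios (median -0.58), and Tmem119 was the one past 2-fold, at 136 and 58.3 CPM. Of 11 glycolysis and hypoxia genes, 10 were negative (median -0.46), Mif was past 2-fold at 421 and 182 CPM, and Pfkp, at 55.5 and 113 CPM, was past it in the other direction, at 1.01 log2 units against 0.98 under TMM scaling.

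Several groups showed little difference in level. None of 19 transcription factors, 8 Fc receptor genes or 12 NF-kB genes reached 2-fold, with medians of -0.02, 0.01 and 0.05. Il1b was at 2807 and 2796 CPM (ratio 0.996, 0.968 to 1.02), Tnf at 114 and 128 CPM (1.12, 0.972 to 1.29) and Mmp12, macrophage elastase, at 1306 and 1265 CPM (0.968, 0.928 to 1.01). Spp1, osteopontin, was at 769 and 1746 CPM (2.27, 2.17 to 2.38) with 58.8% of the KPF1F2 UMIs in 5 cells. The inducible chaperones Hspa1a and Hspa1b were at 45.2 and 566 CPM and at 8.03 and 289 CPM. They were also higher in KPF1F2 alveolar macrophages, by 4.01 and 4.31 log2 units, and in all other cells, at 81.1 and 328 CPM and 58.6 and 252 CPM. AY036118, a transcript on chromosome 17, was at 686 and 89.6 CPM in C1q cells, 597 and 62.8 CPM in alveolar macrophages and 685 and 68.0 CPM in other cells. Gm42418, which overlaps a ribosomal RNA repeat, was at 15758 and 3136 CPM in C1q cells and 27897 and 4832 CPM in alveolar macrophages. Mitochondrial UMIs were a median of 3.54% of a KP and 2.32% of a KPF1F2 C1q cell. The part of heat shock or of these library-wide differences in the other genes was not tested.

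**Figure D3:**
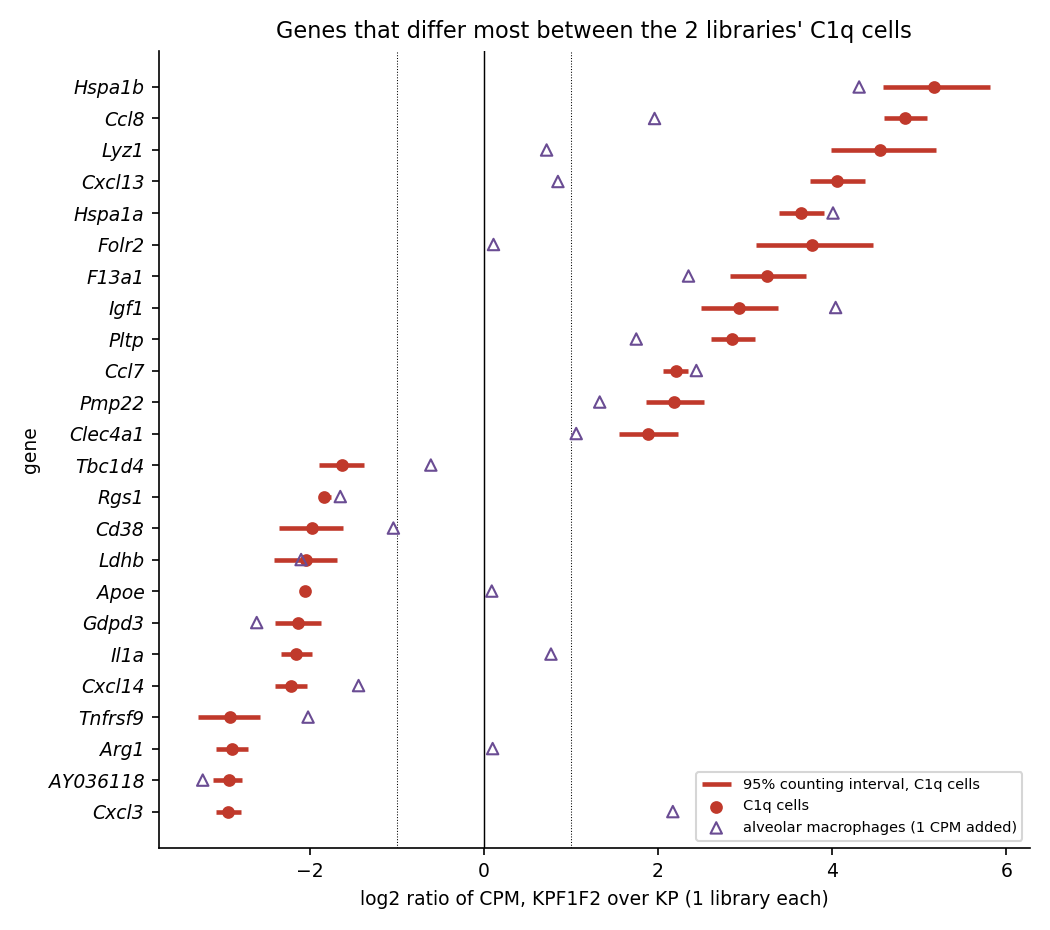
Log2 ratio of CPM, KPF1F2 over KP, for the 12 highest and 12 lowest genes of C1q cells (points with 95% counting intervals, 1 library each) and for the same genes in alveolar macrophages (triangles). Ccl8 (4.80 in C1q cells, 1.96 in alveolar macrophages) and Hspa1b (5.0 and 4.31) are among the highest, and Apoe and Arg1 are low in C1q cells (-2.05 and -2.88) with triangles near 0 (0.09 and 0.10).

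The C1q cells were not uniform, and their genes divided along Apoe. For comparison between cells each was thinned at random to 5000 UMIs, which left 168 KP and 244 KPF1F2 cells and dropped 30 and 17 shallower ones. At that depth 141 KP cells, 83.9% (77.5 to 89.1), held 10 or more Apoe UMIs, against 118 KPF1F2 cells, 48.4% (41.9 to 54.8). No Apoe UMI was seen in 11 KP cells (6.55%) and 90 KPF1F2 cells (36.9%). The median was 106 UMIs in KP and 6.5 in KPF1F2. Within cells above the limit Apoe was also lower in KPF1F2, at 20142 CPM against 41501 CPM. Few cells lay near the limit, 7 and 8 with 5 to 9 UMIs and 12 and 15 with 10 to 19. Among lymphocytes, a population not known for Apoe, 4.2% in KP and 5.67% in KPF1F2 reached 10 UMIs after the same thinning, and among alveolar macrophages 0.615% and 0.573%. Any Apoe UMI was seen in 23.1% and 15.7% of thinned lymphocytes and in 12% and 8.59% of thinned alveolar macrophages, more in KP in each. The part of free Apoe RNA in the contrast at 0 UMIs was not tested. Unthinned, 97.5% of KP C1q cells held Apoe at all.

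**Figure D4:**
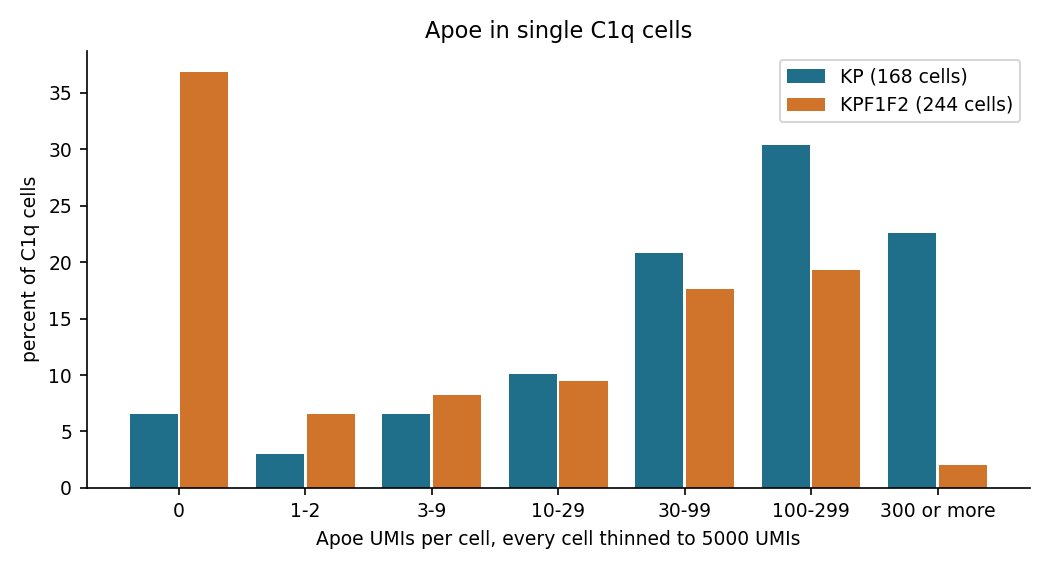
Percent of C1q cells (y axis) by Apoe UMIs per cell after thinning to 5000 UMIs (x axis bins), for 168 KP (blue) and 244 KPF1F2 (orange) cells. The KPF1F2 cells have their highest bar at 0 UMIs (36.9%), and the KP cells in the bin from 100 to under 300 UMIs (30.4%). Among thinned lymphocytes, not shown, 23.1% in KP and 15.7% in KPF1F2 held any Apoe UMI.

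Some genes went with Apoe in both libraries. Over 1070 genes, 12 reached 2-fold higher levels in cells with 10 or more Apoe UMIs in both libraries, Apoe among them, and 13 at least 2-fold lower. On the high side stood Vcam1, an adhesion molecule, at 295 CPM against 51.9 CPM in KP and 398 against 39.7 CPM in KPF1F2, and Stab1, a scavenger receptor, at 156 against 44.4 and 502 against 77.8 CPM. Ms4a7 was at 901 against 207 and 990 against 256 CPM, and Ccl12 at 579 against 148 and 1124 against 325 CPM. On the low side S100a4, a calcium-binding protein of motile cells, was at 145 against 1444 CPM in KP and 181 against 1125 CPM in KPF1F2, and S100a6 at 182 against 1185 and 271 against 1952 CPM. Ccl17 stood there too, at 68.1 against 2548 and 5.08 against 478 CPM. Before thinning, 5 KP cells held 85.8% of its KP UMIs. Ccr2, the receptor of incoming monocytes, was at 119 against 230 CPM in KP, short of 2-fold, and at 57.6 against 227 CPM in KPF1F2. The 14 pan-macrophage genes summed to 23548 and 28616 CPM in cells low in Apoe, against 29709 and 30744 CPM in cells high in Apoe. The 12 dendritic cell genes summed to 193 and 375 CPM in the low cells and 139 and 132 CPM in the high ones, and the 12 monocyte genes to 496 and 800 against 582 and 242 CPM. Chil3, a member of the monocyte list, was at 222 and 430 CPM in the low cells and 399 and 164 CPM in the high ones. The 20 alveolar macrophage genes outside the rule, which also hold Chil3, summed to 3911 and 5906 against 2800 and 2700 CPM. The part of these lists in the split was not tested.

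Across cells of 1 library, which share its depth and free RNA, C1q UMIs went with Apoe (Spearman's rho 0.53 over 168 KP and 0.57 over 244 KPF1F2 cells, thinned) and against Fn1, fibronectin (-0.53 and -0.48). Apoe went against Lgals3, galectin 3 (-0.49 and -0.60). The C1q genes had also chosen these cells, and cells of 1 library are not replicates, so the values are a description. The Arg1 difference was present within the cells high in Apoe, at 427 CPM in KP and 81.4 CPM in KPF1F2, and so was that of Ccl8, at 82.3 and 3010 CPM.

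A small set of C1q cells carried resident genes. Cells with 2 or more UMIs of Lyve1, Folr2, Cd163 and Timd4 together numbered 3 of 168 in KP, 1.79% (0.37 to 5.13), and 30 of 244 in KPF1F2, 12.3% (8.45 to 17.1). A further 6 and 11 cells held 1 such UMI, and no thinned alveolar macrophage or lymphocyte of either library held 2. Of the 30 KPF1F2 cells, 29 held 10 or more Apoe UMIs. Against the KPF1F2 cells with none of these UMIs they held more Ccl8 (8247 against 291 CPM), F13a1 (1213 against 40.4 CPM), C4b (500 against 33.5 CPM), Gas6 (520 against 48.3 CPM) and Cd209f, a C-type lectin (273 against 0 CPM). They held less Mmp12 (6.67 against 1139 CPM), Spp1 (53.3 against 1274 CPM), Lgals3 (240 against 2101 CPM) and Fn1 (113 against 805 CPM), and Ccr2 was at 0 against 169 CPM. The 3 KP cells went the other way for Fn1, at 5800 CPM against 1190 CPM in KP cells with none. The highest thinned KP C1q cell held 87 Fn1 UMIs, so 1 cell can set this value. Since the set was chosen by 4 of these cells' own genes, the values describe it and test nothing. When every C1q cell with any of the 4 genes was left out, a choice made after the data were seen, 180 KP and 200 KPF1F2 cells remained. Folr2 then had a log2 ratio of 0.00 by construction, and Ccl2, Pf4 and Gas6 were at 0.96, 0.83 and 0.98, under the 2-fold rule. C4b went from 1.34 to -0.50, in the other direction.

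Another set of cells held Arg1. It was found in 42 of 168 KP cells, 25% (18.7 to 32.3), and 15 of 244 KPF1F2 cells, 6.15% (3.48 to 9.94). In alveolar macrophages the shares were 9.38% and 5.53% and in lymphocytes 2.1% and 1%. In KP, cells with Arg1 held H2-Aa at 2714 CPM and Fn1 at 4038 CPM, with Apoe at 32852 CPM. H2-Aa was at 8126 CPM in all KP cells high in Apoe and 7904 CPM in those low in it. Across cells Arg1 had a rho with Apoe of -0.10 in KP and -0.04 in KPF1F2. Arg1 went with Fn1 across cells (rho 0.64 in KP and 0.29 in KPF1F2) and against class II UMIs (-0.58 and -0.29). Spp1 at 5 or more UMIs was found in 14.9% (9.87 to 21.2) of KP and 11.9% (8.11 to 16.6) of KPF1F2 C1q cells, against 35.8% and 53.8% of alveolar macrophages and 1.05% and 0.333% of lymphocytes. Mmp12 at 5 or more was found in 33.9% (26.8 to 41.6) and 32% (26.2 to 38.2). No cell of either library met both the resident limit (3 KP and 30 KPF1F2 cells) and the Spp1 limit (25 and 29 cells). With sets this small, the overlap was not tested. A UMI of the proliferation genes Mki67 or Top2a was found in 18.5% (12.9 to 25.2) of KP and 11.5% (7.76 to 16.2) of KPF1F2 cells, against 12.8% and 11.3% of alveolar macrophages and 19.9% and 21.7% of lymphocytes.

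**Figure D5:**
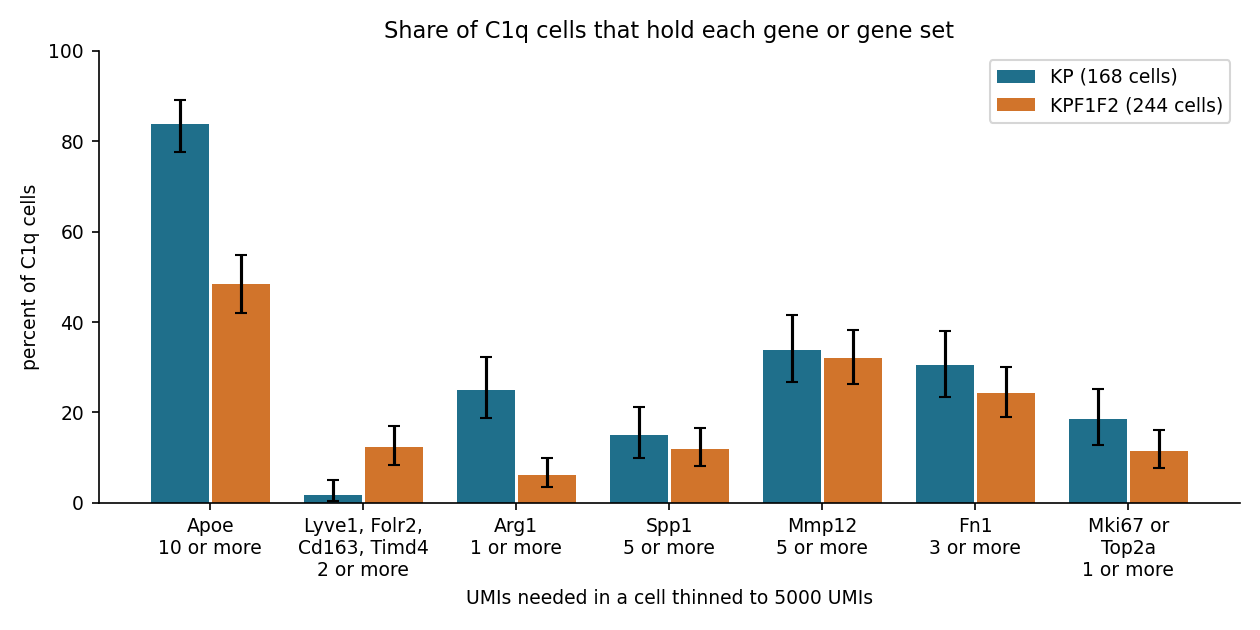
Percent of C1q cells (with exact 95% Clopper-Pearson intervals) that hold the UMIs named on the x axis after thinning to 5000 UMIs, in KP (blue, 168 cells) and KPF1F2 (orange, 244 cells). Shares are 83.9% and 48.4% for Apoe at 10 or more, 1.79% and 12.3% for the resident genes and 25% and 6.15% for Arg1. Those for Spp1 and Mmp12 lie closer together. The intervals cover counting error within 1 library per genotype and do not test the genotypes.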

How the data were processed

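Droplet single-cell RNA sequencing was done on dissociated lung tumours, in 4 libraries of 1 sample each, with the 10x 3′ kit of version 3.1 named in the labels. The authors deposited counts of UMIs per gene and barcode. Per the file headers these come from Cell Ranger 6.0.0, and per the submitters' processing notes from mm10. How strand was used, the settings and the annotation are not stated in the labels or headers used. Of 28006 features, 27645 matched identifiers of GENCODE mouse release 21, which gave positions.

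Cells were kept with at least 1000 UMIs, 500 genes and at most 20% mitochondrial UMIs, with 3797 KP and 3508 KPF1F2 cells of median 8707 and 7472 UMIs. C1q cells and alveolar macrophages were then taken by the rules in the text, with no doublet caller. Lymphocytes needed 2 UMIs of their markers. UMIs were summed per library and population (2988493 in KP and 3828042 in KPF1F2 C1q cells) and divided by the total to give CPM. Folds are log2 ratios of CPM plus 1 and "2-fold" is 1 log2 unit. Intervals at 95% are exact: Clopper-Pearson for shares, Poisson for levels and conditional binomial for ratios. With 1 library per group no test was run. The scripts were tested on simulated data. Members, gene lists and limits were chosen with earlier results of these data known. Genes were named from a standing list and as the 12 highest and 12 lowest of each comparison, from 100 CPM for the contrast with alveolar macrophages and 50 CPM for the genotypes, the latter leaving out genes that were higher in all other cells, and by membership of the gene lists. Spi1, Maf, Siglecf, dendritic cell markers, Gm42418, Xist, Ddx3y and the genes of the subset comparisons were added after their values were seen. Some list members are not reported here. Alternatives changed the C1q, alveolar, mitochondrial and depth limits, scaling (TMM in edgeR 4.0.16, size factors in DESeq2 1.42.0), weighting, thinning, CPM added, minimum level and free RNA. Python 3.11.15, numpy 2.4.6 and scipy 1.17.1 were used.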

Additional observations from a re-analysis of the deposited data

Results flagged for a closer look

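The chemokine Cxcl3 differed between genotypes in opposite directions in the 2 macrophage populations. Its log2 ratio of KPF1F2 over KP was -2.93 in C1q cells (950 and 124 CPM) and 2.17 in alveolar macrophages (17.4 and 81.9 CPM). With 1 library per genotype the difference was not tested. In C1q cells, 5 of the KP cells held 86.5% of its UMIs, and without the 5 leading cells of each library it was at 135 and 12.5 CPM.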

How the results depend on the processing

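The share of C1q cells, 5.21% in KP and 7.44% in KPF1F2, stayed within its counting interval under each planned change of the selection limits that was run. Under alternatives added after the data were seen it was 7.37% and 9.12% with Epcam-positive cells kept, and 11.4% and 23.8% when cells with 3 or more UMIs of another cell type's list, without the most abundant free transcripts, were left out of both counts. In KPF1F2 it was 6.09% without cells that hold Lyve1, Folr2, Cd163 or Timd4. The counts of genes depended on the minimum level. Against alveolar macrophages 160 higher and 200 lower genes were 839 and 685 with no minimum and 56 and 60 at 200 CPM. Between genotypes 71 higher and 64 lower were 632 and 741 with no minimum and 28 and 20 at 200 CPM. Other alternatives gave 62 to 84 higher and 50 to 85 lower genes. Scaling by TMM or DESeq2 factors gave 68 and 71. Of 50 genes past 2-fold between genotypes, from the standing list, the leading genes and the gene lists, 28 stayed past it under every alternative run. C4b (1.34) was -0.50 without cells that hold Lyve1, Folr2, Cd163 or Timd4. Ccl24 (2.08) was -0.15 with alveolar genes under 4 UMIs and -0.76 under the filter on other cell types. Ccl17 (-1.07) was -0.05 without the 5 leading cells of each library, and Mfge8 (-1.4) was -0.19 with Epcam-positive cells kept. Pfkp (1.01) was 0.98 under TMM and DESeq2 factors, and H2-Eb1 (1.06) was 0.80 with Epcam-positive cells kept. Mki67 (-1.06) ranged up to 0.00, which it takes by construction without cells holding it, and Spp1 (1.18) was 0.86 with equal weight per cell and 0.65 after thinning. Sftpc, at 555 and 717 CPM, was at 467 and 50.9 CPM without the 5 leading cells of each library. The planned filter on 3 UMIs of any other list left 3 KP and 99 KPF1F2 cells, and the post-depletion libraries held 0 and 1, so neither was run, with a minimum of 20 cells per library. No paired analysis was possible because each genotype had 1 library.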
